A study of Mus musculus with 6 samples.

Results

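The genes of the mitochondrial ribosome were followed in SWELL1 KO and WT cells of the mouse line 3T3-F442A. Members were the rows of the deposited table with a gene name that starts with Mrpl or Mrps and a digit, which gave 76 of 31097 rows. Of these, 68 rows stood for 1 ribosomal protein gene, 43 named for the large subunit and 25 for the small subunit. A further 4 rows were shared with another gene (Mrpl53 with Ccdc142, Mrpl33 with Bre, Mrps24 with Urgcp and Mrps34 with Nme3), and 4 were pseudogenes. RIKEN clone names did not make a row shared, as in the rows of Mrpl55 (with 2310033P09Rik) and Mrpl48 (with D630004N19Rik). The shared rows and pseudogenes are described apart and stand in no count below unless said.

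Mitochondria keep a small genome that encodes subunits of the respiratory chain, and a ribosome of their own translates the messages of that genome. All protein subunits of this ribosome are encoded in the nucleus, made in the cytosol and imported. Many descend from the proteins of bacterial ribosomes, whereas others have no bacterial counterpart and were gained in mitochondria. The large subunit forms the peptide bond and holds the exit tunnel, which is anchored at the inner membrane, and the small subunit reads the message. Protein names follow the subunit in which each was first placed, so a few names differ from the structure: Mrps30 and Mrps18a sit in the large subunit, and Mrps36 is no ribosomal subunit.

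SWELL1 is another name for Lrrc8a, whose protein forms part of the anion channel that opens when cells swell. The 3 KO libraries came from 3T3-F442A cells in which the gene had been targeted with CRISPR/Cas9, and the 3 WT libraries from parental cells with SWELL1 intact. 3T3-F442A is a preadipocyte line that the labels call an adipocyte line, and both groups were grown in RPMI with 10% FBS. KO library names hold a tag, D3. Its meaning and the number of KO clones are not given in the labels or the design text. Genotype, clone and whatever D3 stands for therefore cannot be told apart. The libraries of a group are called biological replicates in the labels, and the p-values reflect only how these libraries vary.

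Values are taken to be FPKM (sequenced fragments for each kilobase of a transcript, relative to the mapped fragments of the library), a unit that scales for transcript length, so levels can be set side by side between genes. Estimated depth was 18.42 to 25.99 M fragments in KO libraries and 17.18 to 20.9 M in WT libraries. The row of the numbered clone AC166252.2 took 16.7% to 23.71% of the FPKM sum in KO libraries and 0% to 2.102% in WT libraries, and one of the scalings described further on leaves that row out. The row that holds Lrrc8a is shared with Nup188 and Phyhd1 and cannot check the knockout on its own: it stood at 28.8, 28.0 and 27.3 FPKM in KO replicates 1, 2 and 3, against 32.5, 35.0 and 33.2 FPKM in WT replicates 1, 2 and 3 (log2 fold change -0.26, SE 0.04, limma adjusted p = 0.00322). All 8 fibroblast and preadipocyte markers had a value, with summed levels of 7867 to 8032 FPKM in KO and 7652 to 8519 FPKM in WT. All 8 were called in the same direction under all 4 scalings described below, as were 56.6% of all tested rows. Of the 8, 3 were higher (Fn1 by 1.97-fold) and 5 lower in KO (Thy1 by 2.01-fold, Dlk1 by 1.72-fold), so the like sums hold opposite differences. The 8 adipocyte markers summed to 106.5 to 152.1 FPKM in KO against 276.6 to 358.4 FPKM in WT, with Lep at 0 in all libraries. Of 5 tested markers 4 were lower, against 36.7% of all tested rows. Lpl, which was not called, made up most of the KO sums (103.8, 118.9 and 147.4 FPKM in KO replicates 1, 2 and 3). The lower markers differed by far more than the sums. Fabp4 averaged 3.44 FPKM in KO and 159 FPKM in WT (46.3-fold lower). At low levels, Pparg was 14.4-fold and Plin1 10.0-fold lower. Macrophage, endothelial and epithelial markers summed to at most 1.64 FPKM in any library, with Csf1r and Epcam at 0 in all of them. Within these low sums, the epithelial Krt8 was called higher (1.32 ± 0.16 FPKM in KO, listed at 0 in all 3 WT libraries) and the macrophage Lyz2 lower (0.17 ± 0.13 FPKM in KO, 1.51 ± 0.19 FPKM in WT). Of 3 smooth muscle markers, only Acta2 was tested and lower, at 1.88 ± 0.39 FPKM in KO and 74.7 ± 6.16 FPKM in WT, while Cnn1 and Myh11 averaged at most 0.27 FPKM in either group. The part of these marker differences in the results on mitoribosomal genes was not tested.

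Most mitoribosomal genes differed little between KO and WT cells. In the deposited values those that passed the test were mostly lower in KO, but 3 other scalings evened out or turned that balance (11 higher and 12 lower, 16 and 11, and 12 and 10). Differences were tested with limma on log2(FPKM + 0.5), two-sided, with Benjamini-Hochberg adjustment over the 10515 rows that averaged at least 0.5 FPKM, and a row is called where its adjusted p is under 0.05. Of the 68 genes, 66 were tested and 29 were called (43.9%), 6 of them higher and 23 lower in KO. Over all tested rows 65.2% were called, 28.5% higher and 36.7% lower, so the share of mitoribosomal genes called higher stood below that of all rows and the share called lower near it. The KO libraries and the WT libraries did not overlap in 34 of the 66 genes (51.5%), 8 higher and 26 lower in KO, against 71.8% of all tested rows. In bulk libraries, a lower value from fewer cells that express a gene and one from less RNA per cell cannot be told apart.

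The sizes were small. The median log2 fold change over the 66 genes was -0.15 with quartiles of -0.26 and 0.10, against -0.07 with quartiles of -0.50 and 0.38 over all tested rows. Without regard to sign, the median was 0.23 for the mitoribosomal genes, 0.44 for all rows and 0.41 for the 7000 rows in the same range of mean levels. Of the 63 genes with no library at 0, 47 differed by less than 1.25-fold between the group means and only 1, Mrpl39, differed by 2-fold or more on the fitted scale. The 34 of these genes that missed the threshold had log2 fold changes of -0.45 to 0.26.

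**Figure D1:**
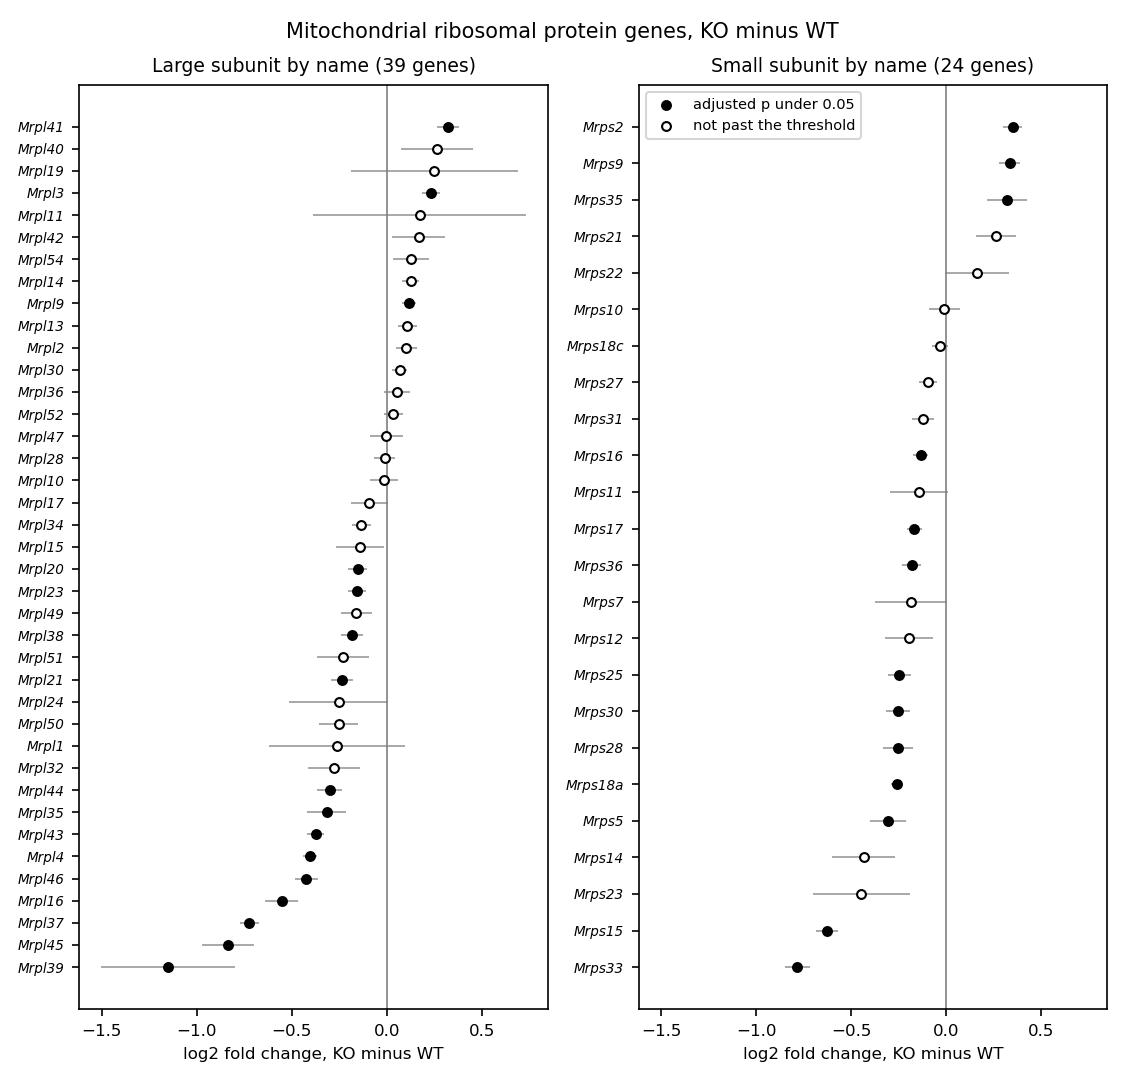
Log2 fold change (KO minus WT, x axis) of the 63 mitoribosomal genes with no library at 0, large subunit by name on the left and small subunit on the right, sorted by size. Points are fits over 3 KO and 3 WT libraries with the SE as a bar, and filled points have an adjusted p under 0.05. Called genes lie between -1.15 and 0.35, and 44 of the 63 genes are below 0.

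The 10 largest decreases past the threshold comprised 8 genes of the large subunit and 2 of the small subunit. By origin, 6 of them are mitochondria-specific and 4 have bacterial homologues. KO and WT libraries did not overlap in any of the 10, nor in 71.8% of all tested rows. The 10 were picked by their difference in these same libraries, so that separation adds no support.

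Mrpl39 (GRCm38 chr16:84717576-84735742, minus strand), a mitochondria-specific protein of the large subunit related to threonyl-tRNA synthetase, stood at 12.5, 11.6 and 12.1 FPKM in KO replicates 1, 2 and 3, against 49.6, 20.2 and 20.4 FPKM in WT replicates 1, 2 and 3. It averaged 12.1 ± 0.43 FPKM in KO and 30.1 ± 16.9 FPKM in WT (SD, n = 3 each), or 2.49-fold lower in KO by means (log2 fold change -1.15, SE 0.35, limma adjusted p = 0.0298). WT replicate 1 was 2.45 times the lowest WT library and sets much of that mean, while the other 2 WT libraries also lie above every KO library. Without WT replicate 1 the log2 fold change was -0.73 (adjusted p = 0.000427), and the call was lost when any 1 of the KO libraries was left out (adjusted p = 0.0713 to 0.0811).

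Mrpl45 (chr11:97315716-97329920, plus strand) encodes a protein by the tunnel exit that ties the ribosome to the inner membrane. Its levels were 31.4, 22.4 and 23.7 FPKM in KO, against 45.8, 49.3 and 43.1 FPKM in WT, a difference of 1.78-fold (log2 fold change -0.84, SE 0.14, limma adjusted p = 0.00235). Mrps33 (chr6:39801804-39810988, minus strand), a mitochondria-specific protein of the small subunit, had 21.5, 24.8 and 21.6 FPKM in KO and 39.0, 38.8 and 39.7 FPKM in WT (1.73-fold lower, log2 fold change -0.78, SE 0.06, adjusted p = 0.000136). The highest KO library was thus far under the lowest WT library in both genes, and the WT libraries of Mrps33 lay within 1 FPKM of each other.

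Mrpl37 (chr4:107055874-107066868, minus strand), a mitochondria-specific large-subunit protein, had the smallest adjusted p of the 66 genes. It stood at 12.5, 12.4 and 11.7 FPKM in KO, against 20.9, 20.9 and 19.6 FPKM in WT, and was 1.68-fold lower (log2 fold change -0.72, SE 0.05, limma adjusted p = 7e-05). Mrps15 (chr4:126046925-126055532, plus strand), whose bacterial homologue binds the platform of the small subunit, had 27.7, 24.0 and 25.2 FPKM in KO and 40.2, 40.0 and 39.3 FPKM in WT. It was 1.55-fold lower (log2 fold change -0.63, SE 0.06, adjusted p = 0.000231), with the WT libraries closer together than the KO libraries.

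Mrpl16 (chr19:11770391-11774960, plus strand), whose bacterial homologue lies beside the incoming tRNA in the large subunit, had 15.5, 16.04 and 15.9 FPKM in KO, against 23.9, 20.7 and 26.1 FPKM in WT. That is 1.49-fold lower in KO (log2 fold change -0.55, SE 0.09, limma adjusted p = 0.00209). Mrpl4 (chr9:21002738-21008839, plus strand), also of bacterial descent, had 26.1, 26.7 and 27.2 FPKM in KO and 34.8, 36.0 and 35.6 FPKM in WT (1.33-fold lower, adjusted p = 0.000196). The libraries of each group were tight for Mrpl4, with SDs of 0.56 FPKM in KO and 0.63 FPKM in WT.

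Mrpl46 (chr7:78775236-78783531, minus strand), a mitochondria-specific protein with a fold related to Nudix hydrolases, stood at 9.43, 9.11 and 9.22 FPKM in KO, against 13.3, 12.9 and 11.6 FPKM in WT (log2 fold change -0.42, SE 0.06, limma adjusted p = 0.0015). Its start overlaps that of Mrps11 (chr7:78783119-78792989, plus strand), a small-subunit gene read in the other direction, which had 7.77, 8.96 and 7.53 FPKM in KO and 7.98, 7.95 and 11.3 FPKM in WT and was not called (adjusted p = 0.438). The 2 genes thus share a start region, but only Mrpl46 passed the test, and the difference between their changes was not tested. No source used here says whether counting used strand, and reads in the overlap cannot be assigned to one of them.

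Mrpl43 (chr19:45004829-45006442, minus strand), a mitochondria-specific large-subunit protein, had 30.2, 31.0 and 32.8 FPKM in KO, against 41.2, 40.0 and 41.0 FPKM in WT (1.3-fold lower, log2 fold change -0.38, SE 0.04, limma adjusted p = 0.000571). It overlaps Peo1, the gene of the mitochondrial DNA helicase, which stood at 8.83, 8.15 and 7.67 FPKM in KO and 7.73, 7.68 and 7.54 FPKM in WT (adjusted p = 0.223). Mrpl35 (chr6:71812997-71826969, minus strand) closed the 10, with 61.2, 55.2 and 69.2 FPKM in KO and 78.2, 69.6 and 83.5 FPKM in WT (log2 fold change -0.32, SE 0.10, adjusted p = 0.0374). For Mrpl35 the highest KO library reached to just under the lowest WT library, and the call was lost without KO replicate 1 or 2 or WT replicate 1 or 3 (adjusted p = 0.0916 to 0.11) and with no filter on low values (0.0552).

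The remaining 13 genes called lower were Mrps5, Mrpl44, Mrps18a, Mrps28, Mrps30, Mrps25, Mrpl21, Mrpl38, Mrps36, Mrps17, Mrpl23, Mrpl20 and Mrps16, with log2 fold changes of -0.31 to -0.14. Their calls turned on the scaling of the libraries, as described with the scalings.

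All 6 increases past the threshold were under 1.3-fold, and 3 belong to each subunit. In all 6 genes the KO libraries lay above the WT libraries, which adds no support because the genes were picked by that difference. Mrps2 (chr2:28468066-28471178, plus strand), a small-subunit protein of bacterial descent, had 13.5, 13.3 and 13.0 FPKM in KO, against 9.77, 10.7 and 10.6 FPKM in WT. It was 1.29-fold higher (log2 fold change 0.35, SE 0.05, limma adjusted p = 0.00145). Mrps9 (chr1:42851233-42905683, plus strand), whose bacterial homologue sits in the head of the small subunit, had 26.3, 23.5 and 24.1 FPKM in KO and 19.0, 20.0 and 19.3 FPKM in WT (1.27-fold higher, log2 fold change 0.33, SE 0.05, adjusted p = 0.00252). Both were steady in WT, with SDs of 0.49 FPKM for Mrps2 and 0.54 FPKM for Mrps9.

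Mrpl41 (chr2:24974117-24975098, minus strand), a mitochondria-specific large-subunit protein, had 14.04, 14.3 and 12.8 FPKM in KO, against 10.5, 10.9 and 11.2 FPKM in WT (log2 fold change 0.32, SE 0.06, limma adjusted p = 0.00406). Mrps35 (chr6:147042764-147073991, plus strand), a mitochondria-specific small-subunit protein, had 25.7, 29.3 and 22.2 FPKM in KO and 19.5, 21.1 and 20.7 FPKM in WT (log2 fold change 0.32, SE 0.10, adjusted p = 0.036). The KO libraries of Mrps35 were spread (SD 3.53 FPKM, against 0.86 FPKM in WT), and its call was lost when any library other than KO replicate 3 was left out (adjusted p = 0.0671 to 0.104) or no filter on low values was set (0.0525).

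Mrpl3 (chr9:105053239-105079888, plus strand), whose bacterial homologue reaches towards the peptidyl transferase centre, had 15.95, 17.3 and 16.3 FPKM in KO, against 13.98, 13.8 and 14.1 FPKM in WT (1.18-fold higher, log2 fold change 0.23, SE 0.05, limma adjusted p = 0.00528). Mrpl9 (chr3:94443318-94451130, plus strand), a large-subunit protein of bacterial descent, had 36.3, 36.8 and 36.0 FPKM in KO and 32.7, 33.6 and 34.4 FPKM in WT (1.08-fold higher, log2 fold change 0.11, SE 0.04, adjusted p = 0.032). Mrpl9 shows how small a difference passed where replicates were close, and its call was lost without KO replicate 1 or 2 or WT replicate 1 or 2 (adjusted p = 0.0663 to 0.0883) and with no mean-variance trend (0.0567).

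**Figure D2:**
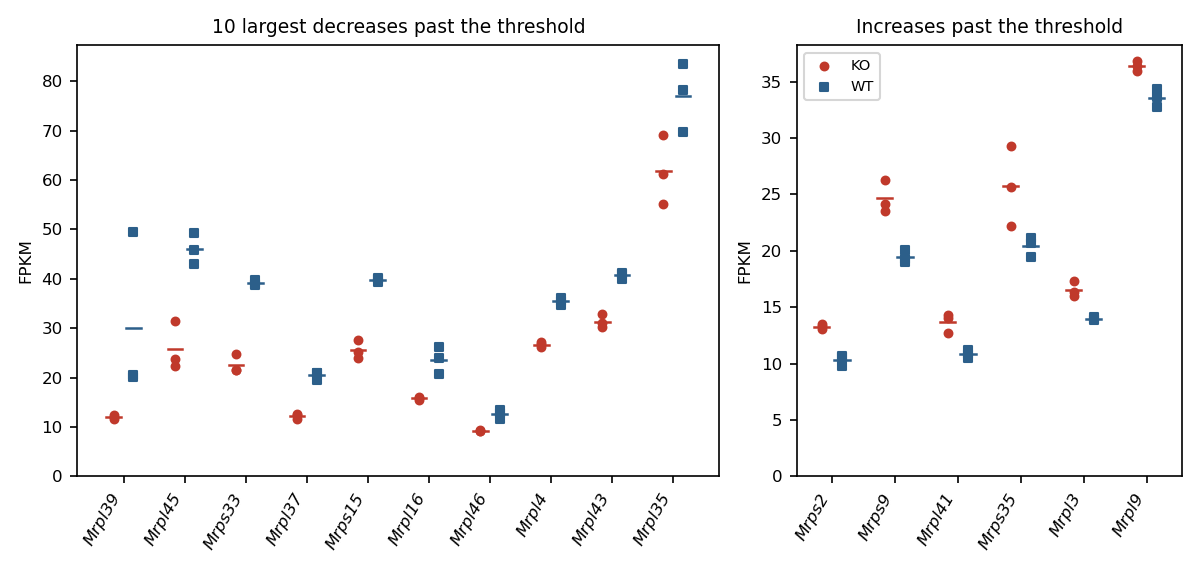
FPKM of each library (y axis, from 0) for the 10 largest decreases on the left and the 6 increases on the right, KO as red circles left of WT as blue squares, with a line at each group mean of 3 libraries. The groups do not overlap in any of the 16 genes, which were picked by their difference in these same libraries. WT replicate 1 of Mrpl39 stands apart at 49.6 FPKM.

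Promoters of mitoribosomal genes are known to carry sites for the factors NRF1, GABP (an ETS factor) and YY1, and the promoter stretches of 5 called genes are shown for their matches to these motifs. Sequences are those of RefSeq on GRCm38.p6, from 150 bases before to 30 bases after the annotated start of transcription, on the gene's strand and 5′ to 3′. Capitals mark matches on either strand to CGCATGCG (the NRF1 core), GCGCANGCG (an NRF1 site with any base at the N, which can overlap the core) or CCGGAAG (the ETS core). Mrpl39 (chr16:84735215-84735394, minus strand) and Mrpl45 (chr11:97315566-97315745, plus strand) are the 2 largest decreases and hold NRF1-type matches. Mrpl43 (chr19:45006413-45006592, minus strand) is a decrease with 2 ETS matches. Mrps9 (chr1:42851083-42851262, plus strand) is an increase with an NRF1-type match, and Mrpl3 (chr9:105053118-105053297, plus strand) is an increase with an ETS match.
Mrpl39: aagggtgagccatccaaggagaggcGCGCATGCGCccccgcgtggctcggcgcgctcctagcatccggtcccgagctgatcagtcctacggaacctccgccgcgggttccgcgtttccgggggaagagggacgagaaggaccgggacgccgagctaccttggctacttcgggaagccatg
Mrpl45: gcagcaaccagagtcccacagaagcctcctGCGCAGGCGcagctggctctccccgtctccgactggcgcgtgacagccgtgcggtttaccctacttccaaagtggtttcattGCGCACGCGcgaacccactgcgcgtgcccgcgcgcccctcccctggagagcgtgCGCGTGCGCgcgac
Mrpl43: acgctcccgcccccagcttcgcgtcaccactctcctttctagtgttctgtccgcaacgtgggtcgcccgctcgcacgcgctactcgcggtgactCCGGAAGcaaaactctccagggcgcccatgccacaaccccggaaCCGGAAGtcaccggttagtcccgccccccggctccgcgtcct
Mrps9: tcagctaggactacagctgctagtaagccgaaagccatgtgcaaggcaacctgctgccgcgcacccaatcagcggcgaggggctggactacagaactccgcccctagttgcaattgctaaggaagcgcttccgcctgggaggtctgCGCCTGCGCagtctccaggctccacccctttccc
Mrpl3: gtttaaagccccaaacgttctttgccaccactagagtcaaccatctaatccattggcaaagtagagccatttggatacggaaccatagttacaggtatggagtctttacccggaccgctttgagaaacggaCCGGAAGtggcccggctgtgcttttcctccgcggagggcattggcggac

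Among these 5, NRF1-type and ETS matches stand by genes of both directions. The 5 were picked for their matches, so this does not tell how matches relate to direction. Called genes with no match to any motif counted next include Mrps2 and Mrpl41 (higher) and Mrps15 and Mrpl46 (lower). RefSeq promoters of 300 bases (250 before to 50 after the start) were found for 63 of the 72 genes, shared rows included. CCGGAAG lay in the promoters of 22 of the 63 (34.9%), against 20.6% of genes with a tested row and 9.93% of all genes in the promoter table. CGCATGCG lay in 5 (7.94%), against 4.86% and 2.07%, and GCGCANGCG in 12 (19.0%), against 16.3% and 7.03%. AAGATGGCG, the YY1 core, lay in 8 (12.7%), against 3.88% and 1.64%. The E-box CACGTG was in 5 (7.94%), against 11.8% and 8.09%. An NRF1, ETS or YY1 match of any kind was in 37 of the 63 (58.7%), against 35.5% of genes with a tested row. Among unshared tested genes that hold CCGGAAG and have no library at 0, 1 of 16 was called higher and 5 lower (median log2 fold change -0.14), and among those without it 4 of 39 were called higher and 15 lower (median -0.16). With GCGCANGCG, 2 of 11 were called higher and 3 lower (median -0.02), and without it 3 of 44 were higher and 17 lower (median -0.17). With AAGATGGCG, limma called 0 of 7 higher and 3 lower (0 and 3 at an unadjusted p under 0.05, median -0.14), and without it 5 of 48 were higher and 17 lower (median -0.16). With CGCATGCG, 1 of 5 was called higher and 1 lower. With CACGTG, limma called 0 of 5 higher and 2 lower (0 and 2 at an unadjusted p under 0.05, median -0.03). Without CACGTG, 5 of 50 were higher and 18 lower (median -0.17). Over all tested rows 28.5% were called higher and 36.7% lower. All these calls are those of the deposited values. No test compared these groups. These are matches of letters, and binding was not measured.

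The large and the small subunit were compared next, against 28.5% of all rows called higher and 36.7% called lower. Of 41 tested genes named for the large subunit, 3 (7.32%) were called higher and 13 (31.7%) lower in KO (median log2 fold change -0.14). Of 25 named for the small subunit, 3 (12%) were called higher and 10 (40%) lower (median -0.18). Under quantile normalization the large subunit had 11 higher (26.8%) and 8 lower (19.5%, median 0.05). The small subunit had 5 higher (20%) and 3 lower (12%, median -0.04). All these shares stood below those of all rows under that scaling (32.6% higher and 32.1% lower). Without KO replicate 2, 8 rather than 13 genes of the large subunit were called lower. By structure, with Mrps30 and Mrps18a moved to the large subunit and Mrps36 left out, the counts were 3 higher and 15 lower of 43 for the large subunit (median -0.14) and 3 higher and 7 lower of 22 for the small subunit (median -0.16). Median levels of the group means were 31.3 FPKM in KO and 35.5 FPKM in WT for the large subunit, and 25.1 FPKM in KO and 29.4 FPKM in WT for the small subunit.

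Summed over the 63 genes with no library at 0, mitoribosomal messages stood at 2254, 2153 and 2123 FPKM in KO replicates 1, 2 and 3, against 2362, 2395 and 2392 FPKM in WT replicates 1, 2 and 3. In these deposited values the KO mean was 0.914 of the WT mean, and the groups did not overlap. That separation depended on the scaling. Median-ratio scaling divides by factors of 0.972 to 0.974 in KO libraries and 1.02 to 1.04 in WT libraries, after which the sums of the groups overlap. The sum for the large subunit divided by that for the small subunit was 1.89, 1.79 and 1.81 in KO and 1.74, 1.70 and 1.81 in WT. These ratios overlapped, so the balance between the subunits did not separate the groups.

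Genes with bacterial homologues and mitochondria-specific genes gave different medians. Of 41 tested genes with a bacterial homologue, 4 (9.76%) were called higher and 12 (29.3%) lower (median log2 fold change -0.14). Of 24 mitochondria-specific genes, 2 (8.33%) were called higher and 10 (41.7%) lower (median -0.24). Over all rows 28.5% were higher and 36.7% lower. Within the large subunit by structure the medians were -0.02 for 27 genes with a bacterial homologue and -0.24 for 16 mitochondria-specific genes. Within the small subunit they were -0.16 for 14 genes and -0.18 for 8. The difference between the classes was not tested. Their counts also moved with the scaling: under quantile normalization 12 genes with a bacterial homologue (29.3%) were called higher and 3 (7.32%) lower, and 4 mitochondria-specific genes (16.7%) were called higher and 8 (33.3%) lower, against 32.6% and 32.1% of all rows.

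The direction of the whole set depended on how libraries were scaled. As deposited, 6 of the 66 genes were called higher and 23 lower. Median-ratio scaling gave 11 higher and 12 lower, against 32.5% higher and 32.4% lower of all rows. Quantile normalization gave 16 higher and 11 lower, against 32.6% and 32.1%. Rescaling each library to a fixed sum without the AC166252.2 row gave 12 higher and 10 lower, against 33.8% and 29.6%. The median log2 fold change was -0.07 under median-ratio scaling, 0.00 under quantile normalization and -0.03 after rescaling. Rescaling also moved the median of all rows to 0.04, a shift of over 0.1 from the deposited values. Relative to the median of all rows, the mitoribosomal genes stood at -0.08 as deposited, -0.07 under median-ratio scaling, 0.01 under quantile normalization and -0.07 after rescaling. An excess of lower over higher genes was therefore not a feature of every scaling.

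Under all 4 scalings, 15 of the 66 genes (22.7%) were called in the same direction, against 56.6% of all tested rows. The 6 higher genes were the 6 increases described (27.9% of all rows were higher under all 4), and 9 genes were lower (28.7% of all rows). The 9 were the 10 largest decreases without Mrpl35, which missed the threshold under the 3 other scalings (adjusted p = 0.0988 under median-ratio scaling, 0.536 under quantile normalization and 0.188 after rescaling). None of the 13 smaller decreases was called lower under all 4, with 3 of them still lower under median-ratio scaling, 2 under quantile normalization and 1 after rescaling. In the large subunit by name 3 genes were higher and 7 lower under all 4 scalings, and in the small subunit 3 were higher and 2 lower.

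**Figure D3:**
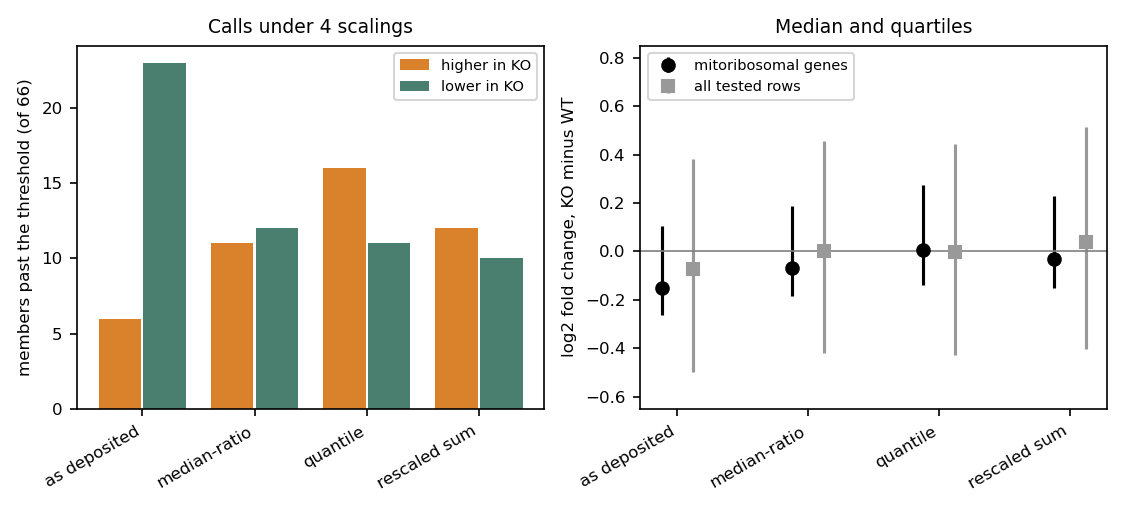
Left, number of the 66 tested mitoribosomal genes called higher or lower in KO (y axis) under the deposited values and 3 other scalings. Right, median log2 fold change (KO minus WT) with quartiles as bars for the mitoribosomal genes and for all tested rows. Lower calls number 23 as deposited and 12, 11 and 10 under median-ratio, quantile and rescaled values, and the quartiles of the mitoribosomal genes lie inside those of all rows under each.

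Levels spanned 25.5-fold among the 63 genes with no library at 0, from a mean of 4.69 FPKM for Mrpl47 to 119.54 FPKM for Mrps16, and 56 lay between 10 and 100 FPKM. A gene's level in a single library rested on an estimated 56.8 (Mrpl19) to 5085 fragments, with a median of 547 over genes and libraries. Mrps16, a small-subunit protein of bacterial descent, had 111, 116 and 115 FPKM in KO, against 124, 130 and 122 FPKM in WT (log2 fold change -0.14, SE 0.04, limma adjusted p = 0.0209). Its call was lost under median-ratio scaling (adjusted p = 0.246) and rescaling (0.77), without KO replicate 1 (0.0582) or WT replicate 2 (0.055), and under quantile normalization its sign turned (log2 fold change 0.08, adjusted p = 0.0934).

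The other abundant genes of the large subunit were not called as deposited. Mrpl30 had 102, 104 and 98.4 FPKM in KO, against 95.8, 94.7 and 99.9 FPKM in WT (log2 fold change 0.07, limma adjusted p = 0.181), and was called higher under median-ratio scaling (adjusted p = 0.0178), quantile normalization (0.000924) and rescaling (0.00966). Mrpl52 had 98.9, 106 and 95.8 FPKM in KO and 94.5, 98.1 and 101 FPKM in WT (log2 fold change 0.03, adjusted p = 0.577). It was called higher under quantile normalization (0.00245) and rescaling (0.0196). Mrpl17 had 95.8, 74.2 and 90.0 FPKM in KO and 93.5, 91.9 and 90.5 FPKM in WT (log2 fold change -0.09, adjusted p = 0.427), where KO replicate 2 lay below the WT range by over 10 FPKM and KO replicate 3 just below it. The groups overlapped in all 3 of these genes.

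Among the rows shared with another gene, the row of Ccdc142 and Mrpl53 (chr6:83109040-83109939 for Mrpl53) had the largest decrease of any row that holds a mitoribosomal gene and no library at 0. It stood at 22.2, 26.6 and 27.4 FPKM in KO, against 61.7, 64.0 and 65.1 FPKM in WT, or 2.51-fold lower (log2 fold change -1.32, SE 0.09, limma adjusted p = 5.52e-05). The row of Bre and Mrpl33 (chr5:31596935-31664384 for Mrpl33) was the most abundant, at 196, 194 and 186 FPKM in KO and 248, 244 and 238 FPKM in WT (1.27-fold lower, log2 fold change -0.34, SE 0.04, adjusted p = 0.000373). Both rows were lower under all 4 scalings, with no overlap between groups, as in 71.8% of all tested rows. Which of the 2 genes in each row carries the difference cannot be told from the table. The row of Mrps24 and Urgcp had 44.8, 44.4 and 45.4 FPKM in KO and 46.9, 43.7 and 45.0 FPKM in WT (limma adjusted p = 0.833), with a sign that turned under the other 3 scalings and a call as higher under quantile normalization (adjusted p = 0.0121).

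A value of exactly 0 stood in 6 of the 72 gene rows, and in this table a 0 can be a failed estimate. Mrpl18 and Mrpl48 were listed at 0 in all 6 libraries and were not tested. The row of Mrps34 and Nme3 (chr17:24895116-24897502 for Mrps34) had 51.6, 46.0 and 35.5 FPKM in KO and was listed at 0 in all 3 WT libraries (limma adjusted p = 2.14e-06, no fold given). Mrpl27 (chr11:94653767-94660089), of bacterial descent and close to the peptidyl transferase centre, had 44.9, 42.6 and 0 FPKM in KO and was listed at 0 in all 3 WT libraries (adjusted p = 0.0788, and 1.91e-05 without KO replicate 3). Mrps26 (chr2:130563742-130568695) was the reverse case, with 17.3, 19.0 and 0 FPKM in KO, against 19.0, 20.2 and 20.2 FPKM in WT (adjusted p = 0.301). The row of Mrpl55 (chr11:59202486-59206134), which also names 2310033P09Rik, was listed at 0 in 5 libraries and had 3.58 FPKM in KO replicate 2 (adjusted p = 0.335).

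In Mrpl27, Mrps26 and Mrpl55 a 0 stands beside a value above 0 in the same group, and no level is read from it. In the row of Mrps34 and Nme3 the call rests on WT values that are all 0. Neither absence in WT nor an increase in KO is read from that row. Of the 6 rows with a 0, 4 overlap another coding gene in the annotation, as do 21 of the other 66. In the 7000 rows with means of 4.69 to 119.54 FPKM, the range of the members with no 0, 167 (2.39%) had a library at 0. Mrpl18, Mrpl48 and Mrpl55 average below that range, so the 6 rows cannot be set against this share. The 4 pseudogene rows (Mrpl23-ps1, Mrpl48-ps, Mrps36-ps1 and Mrps36-ps2) averaged 4.65 to 7.27 FPKM, and limma called 0 of them (0 at an unadjusted p under 0.05). They resemble their parent genes in sequence, so reads may be split between a pseudogene and its parent.

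Replicates were less even for some mitoribosomal genes than for most rows. In 10 of the 63 genes with no 0 (15.9%) the highest library of a group was over 1.5 times the lowest, against 9.26% of 6833 such rows in the same level range. WT libraries were uneven in 8 of the 10 and KO libraries in 4, and Mrpl39 was the only called gene among them. Mrpl11 had 29.1, 19.9 and 14.9 FPKM in KO, against 16.3, 8.96 and 40.5 FPKM in WT, a WT spread of 4.52 times. Mrpl19 had 5.26, 14.6 and 4.22 FPKM in KO, against 5.22, 6.27 and 5.83 FPKM in WT, a KO spread of 3.47 times. The groups of both genes overlapped fully.

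Mrps23 had 61.4, 59.4 and 41.2 FPKM in KO, against 82.5, 89.6 and 51.9 FPKM in WT, with replicate 3 lowest in each group. Mrps14 had 28.1, 26.9 and 27.6 FPKM in KO and 31.8, 33.7 and 48.9 FPKM in WT, groups that did not overlap but missed the threshold (limma adjusted p = 0.0586). Mrpl1, the homologue of the bacterial stalk protein, had 9.97, 5.08 and 11.2 FPKM in KO and 11.7, 6.80 and 12.8 FPKM in WT. In Mrpl1 replicate 2 was lowest in both groups, and the groups overlapped. Mrpl24 had 64.1, 36.0 and 35.4 FPKM in KO and 47.2, 47.0 and 62.8 FPKM in WT. Mrps7, Mrps22 and Mrpl40 were uneven in WT alone and were not called.

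**Figure D4:**
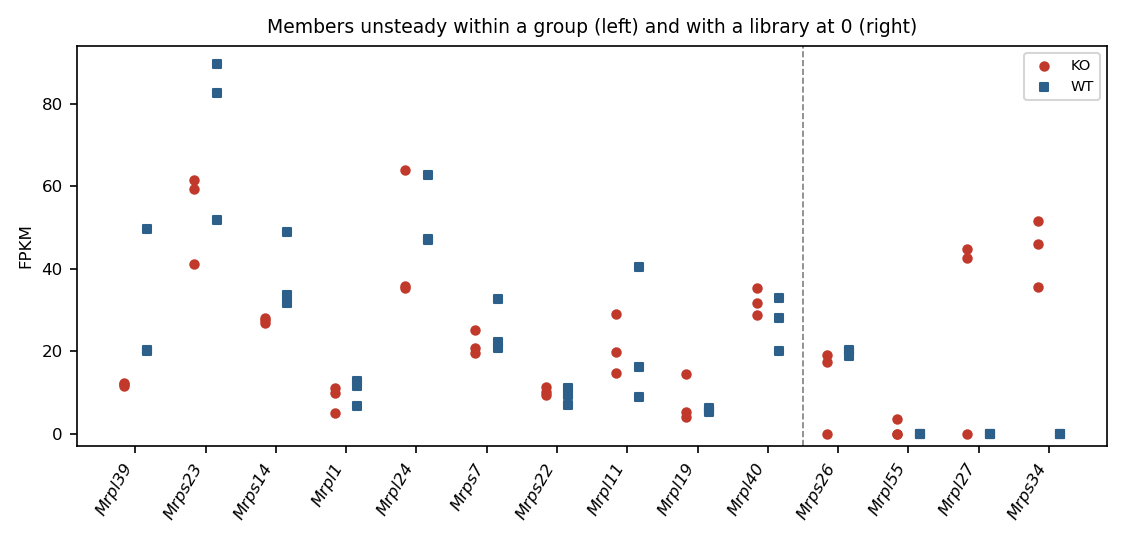
FPKM of each library (y axis), KO as red circles left of WT as blue squares, for the 10 mitoribosomal genes whose highest library of a group was over 1.5 times the lowest (left of the dashed line) and for rows with some libraries listed at 0 (right). Mrpl11 ranges from 8.96 to 40.5 FPKM within WT, and Mrpl27 holds 2 KO libraries above 40 FPKM beside 4 libraries at 0.

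Of genes for proteins of the mitochondrial ribosome whose symbols start with neither Mrpl nor Mrps, 6 were tested, Mrp63 included. Of these 6, limma called 2 higher (33.3%, against 28.5% of all rows) and 0 lower (2 higher and 1 lower at an unadjusted p under 0.05). Ptcd3, an RNA-binding protein of the small subunit, had 30.03, 29.6 and 27.7 FPKM in KO, against 21.8, 24.2 and 17.9 FPKM in WT (1.37-fold higher, log2 fold change 0.45, SE 0.11, limma adjusted p = 0.0136). Ict1, a peptidyl-tRNA hydrolase built into the large subunit, had 40.5, 39.7 and 39.0 FPKM in KO and 27.6, 32.5 and 28.5 FPKM in WT (1.35-fold higher, log2 fold change 0.43, SE 0.07, adjusted p = 0.00212). Both stayed higher under all 4 scalings. The groups did not overlap in either, nor in 71.8% of all tested rows. Both were picked by their difference in these same libraries, so that separation adds no support. Aurkaip1, Dap3, Gadd45gip1 and Mrp63 were not called, of which Gadd45gip1 had 0, 0 and 6.71 FPKM in KO and 7.78, 8.11 and 7.80 FPKM in WT.

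Of 10 tested factors that start, extend or end translation in mitochondria, 1 (10%) was called higher and 3 (30%) lower, against 28.5% and 36.7% of all rows. Of the lower calls only Tufm held under all 4 scalings: Gfm1 was lost under quantile normalization (limma adjusted p = 0.064) and Mtif3 under the 3 scalings other than the deposited one (0.0623 to 0.143). Mtrf1l, a release factor that ends translation at stop codons, had 6.74, 8.21 and 7.04 FPKM in KO, against 1.13, 0.757 and 2.00 FPKM in WT (5.65-fold higher, log2 fold change 2.18, SE 0.26, limma adjusted p = 0.000602). Tufm, the elongation factor that brings charged tRNA to the ribosome, had 37.4, 36.8 and 35.0 FPKM in KO and 59.2, 59.1 and 58.6 FPKM in WT (1.62-fold lower, log2 fold change -0.69, SE 0.04, adjusted p = 3.14e-05). Both calls, of Mtrf1l and Tufm, held under all 4 scalings. Their groups did not overlap, which adds no support because these genes were picked by their difference.

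Among genes for assembly of the ribosome and modification of its RNA, 1 of 15 tested (6.67%) was called higher and 6 (40%) lower, of which 5 held under all 4 scalings. Over all rows 28.5% were higher and 36.7% lower. On the fitted scale, rows with a 0 included, 40% of the assembly and modification genes differed by 2-fold or more. So did 6.06% of the mitoribosomal genes and 19.4% of all rows, with no test between these sets. Of the assembly genes past 2-fold, Dhx30, Noa1 and Tfb1m hold a 0, and Dhx30 and Noa1 were not called. Of the mitoribosomal genes past 2-fold, all but Mrpl39 hold a 0 (Mrps26, Mrpl27 and Mrpl55). A 0 can be a failed estimate, so these shares do not compare sizes of change. Mterfd2 (also Mterf4), which works with the methyltransferase Nsun4 in assembly of the large subunit, had 126, 118 and 101 FPKM in KO, against 7.93, 7.91 and 9.01 FPKM in WT (13.9-fold higher, log2 fold change 3.71, SE 0.10, limma adjusted p = 3.86e-06). Gtpbp10, a GTPase of large-subunit assembly, had 0.230, 0.416 and 0.369 FPKM in KO and 2.93, 2.60 and 2.90 FPKM in WT (8.3-fold lower, log2 fold change -1.99, SE 0.12, adjusted p = 4.65e-05). Tfb1m, which methylates the RNA of the small subunit, had 0, 0 and 0 FPKM in KO, against 4.999, 3.96 and 4.75 FPKM in WT (adjusted p = 7.09e-06, no fold given). A 0 in this table can be a failed estimate, so absence of Tfb1m in KO is not read from it. The groups did not overlap in Mterfd2 and Gtpbp10, which adds no support for genes picked by their difference. Nsun4 itself was not called.

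Genes of mitochondrial transcription, RNA processing and DNA copying were called at shares near those of all rows, with 5 of 15 tested (33.3%) higher and 5 (33.3%) lower, against 28.5% and 36.7%. All 5 higher calls and 3 of the 5 lower calls held under all 4 scalings. Lrpprc, which stabilises mitochondrial messages, had 23.8, 21.6 and 21.3 FPKM in KO, against 7.12, 8.11 and 7.89 FPKM in WT (2.89-fold higher, log2 fold change 1.47, SE 0.07, limma adjusted p = 1.95e-05). Ssbp1, which coats single-stranded mitochondrial DNA, had 23.6, 23.4 and 24.6 FPKM in KO and 65.6, 43.9 and 63.3 FPKM in WT (2.41-fold lower, log2 fold change -1.23, SE 0.16, adjusted p = 0.000838). The groups did not overlap in either gene, which adds no support because both were picked by their difference.

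Of 6 tested genes for factors that regulate nuclear genes of mitochondria, limma called 0 higher and 4 lower (0 and 4 at an unadjusted p under 0.05), against 28.5% and 36.7% of all rows, and 3 of the 4 stayed lower under all 4 scalings. Gabpb1, the partner subunit of the ETS factor GABP, had 7.93, 8.22 and 9.82 FPKM in KO, against 19.8, 17.3 and 19.5 FPKM in WT (2.18-fold lower, log2 fold change -1.09, SE 0.10, limma adjusted p = 0.00019). Gabpa, its DNA-binding subunit, had 15.6, 18.2 and 19.0 FPKM in KO and 35.4, 26.3 and 27.0 FPKM in WT (log2 fold change -0.72, adjusted p = 0.0045). Yy1 was lower by less (log2 fold change -0.35, adjusted p = 0.00129). Nrf1 had 10.0, 10.0 and 10.2 FPKM in KO and 15.0, 10.7 and 11.7 FPKM in WT and was not called (adjusted p = 0.095). Nfe2l2 was called lower as deposited only (adjusted p = 0.136 to 0.7 under the other 3 scalings). Ppargc1b went the other way and was not called (log2 fold change 0.17, limma adjusted p = 0.335). Ppargc1a was too low to be tested, at 0.626, 0.965 and 0.434 FPKM in KO and 0, 0.0158 and 0 FPKM in WT. With no filter on low values, 1 of the listed regulators was called higher.

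Set beside the members, ribosomal proteins of the cytosol gave 3 genes higher and 40 lower of 60 tested (71.7% called, against 65.2% of all rows, median log2 fold change -0.29). Under quantile normalization they gave 6 higher (10%) and 25 lower (41.7%, median -0.12), against 32.6% and 32.1% of all rows. Nuclear genes of the respiratory chain gave 12 higher and 28 lower of 61 tested (65.6% called, at the share of all rows, median -0.12). Under quantile normalization they gave 19 higher (31.1%) and 15 lower (24.6%, median 0.01), against the same shares of all rows. The 43.9% of mitoribosomal genes called was the lowest share of the 3 sets. The sets were not tested against each other.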

How the data were processed

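Total RNA was extracted with TRIZOL and sequenced on an Illumina HiSeq, per the labels' protocols and the study's design text. Per the submitters' processing notes the authors used TopHat, Cufflinks 2.02 and the build GRCm38. The deposited table has 31097 rows and 1 column per library, whose values are read here as FPKM by inference: no label or header names the unit, Cufflinks gives FPKM, and low values step in units that fall with transcript length. No source used here gives strand, filters or annotation release. No pair of libraries was alike enough to be repeat deposits of 1 library (26.27% to 32.21% of rows at 10 FPKM or more differed by over 10% within pairs of a group).

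Depth was estimated from the lowest values of 910 genes that have 1 transcript, 2500 bases or longer. Values were tested as deposited on log2(FPKM + 0.5) by limma 3.58.1 under R 4.3.3 (mean-variance trend, two-sided, Benjamini-Hochberg adjustment, threshold 0.05) over the 10515 rows averaging 0.5 FPKM or more. Fold changes are KO over WT; a log2 fold change is on the log2(FPKM + 0.5) scale and understates the change of low genes. Folds by means use FPKM. Python 3.11.15, numpy 2.4.6, pandas 2.3.3, scipy 1.17.1 and matplotlib 3.10.9 were used for the rest. Positions are from GENCODE vM21 (GRCm38), and promoters from RefSeq (GRCm38.p6).

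On simulated data for KO against WT (10515 rows, 200 changed), the test found 74.6% of 1.5-fold changes, 80.6% of 2-fold changes and 92.4% of 4-fold changes, with 8.33% false among its calls. The data differ from this setting, since 65.2% of their rows were called, so these shares need not hold for them. No change under 1.5-fold was simulated.

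Values were given per library for the 10 largest increases and decreases among unshared genes with no 0, the 5 highest means, rows with a 0 and shared rows, and in other lists for the largest change each way. Uneven genes and Gabpa, Yy1, Nrf1, Nfe2l2, Ppargc1a, Ppargc1b, Gadd45gip1, Mrps11 and Peo1 were added after their values were seen. Members, lists and motifs were chosen with earlier results of these data known. Of the subunit genes, Mrpl12, Mrpl22, Mrps18b and Mrps6 were not analysed here. Alternatives were other pseudocounts, filters and scalings, no trend, a replicate block and leaving out each library.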

Additional observations from a re-analysis of the deposited data

How the results depend on the processing

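The number of mitoribosomal genes called in each direction depended on the scaling, and the cause was not tested beyond that. Under median-ratio scaling, quantile normalization and rescaling without the AC166252.2 row, 11, 16 and 12 of the 66 genes were called higher and 12, 11 and 10 lower, with median log2 fold changes of -0.0691, 0.00452 and -0.0323. In the large subunit 7, 11 and 8 were higher and 8, 8 and 7 lower (medians -0.0542, 0.0467 and -0.0160), and in the small subunit 8, 8 and 7 were called, 4, 3 and 3 of them lower (medians -0.101, -0.0380 and -0.0634), with 5 higher under quantile normalization. Called in the same direction under all 4 scalings, a count added after seeing the data, were 15 genes, 9 of them lower. The median of all rows was 0.00297, -0.00292 and 0.0399 under these scalings, 0.0116 without a filter on low values and -0.0844 with a minimum mean of 1 FPKM.

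Leaving out 1 library at a time gave 22 to 26 genes called, 4 to 7 higher and 17 to 21 lower (median -0.167 to -0.111), with 8 to 12 lower in the large subunit and 7 to 10 in the small. Signs turned for Mrps16 (quantile 0.0821), Mrpl17 (quantile 0.123, rescaled 0.0278, -0.169 without KO replicate 1 and 0.0142 without KO replicate 2), Mrpl52 (-0.00611 without KO replicate 2 to 0.0640 without KO replicate 3), Timm23 (quantile 0.0577) and the row of Mrps24 (median-ratio 0.0720, quantile 0.178, rescaled 0.111, -0.0334 without WT replicate 2 and 0.0163 without WT replicate 1). Of 27 named members, 17 kept their side and sign under every alternative run, 9 lost or gained a call under at least 1, and 4 changed sign, with some genes in both counts.

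KO and WT libraries of the same number did not deviate together (correlations 0.00342, 0.0116 and -0.0932), no KO library correlated best with its own number, and the numbers are not taken as pairs. With the replicate block 26 genes were called, 5 higher and 21 lower, and 6534 of all rows, against 6860 without it, and Mrpl9 lost its call (adjusted p = 0.0787). Precision is set by 3 libraries a group and by depth.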

Other observations

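Genes of the import path that brings ribosomal proteins into mitochondria gave 3 higher (30%) and 4 lower (40%) of 10 tested, near the 28.5% and 36.7% of all rows. Timm44, which tethers the import motor to the inner membrane, had 33.1, 28.2 and 27.8 FPKM in KO, against 20.0, 22.4 and 24.4 FPKM in WT (1.33-fold higher, log2 fold change 0.41, SE 0.10, limma adjusted p = 0.0125). Hspa9, the chaperone of that motor, had 372, 345 and 378 FPKM in KO and 478, 530 and 504 FPKM in WT (1.38-fold lower, log2 fold change -0.47, SE 0.05, adjusted p = 0.000603). The groups did not overlap in either gene, which adds no support because both were picked by their difference. Under all 4 scalings 3 import genes stayed higher and 1 stayed lower. Mrp63, the older symbol of Mrpl57, had 4.14, 17.5 and 4.57 FPKM in KO and 17.4, 5.57 and 21.8 FPKM in WT and was not called (adjusted p = 0.340). Across the 63 members with no 0, Pearson's r between the log2 fold change and the log2 mean level was -0.005, and between the log2 fold change and log2 transcript length it was -0.17. These r values are across genes of the same 6 libraries, and genes are not independent replicates.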
